A study of Mus musculus with 10 samples.

Results

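The comparison set conventional CD4+ T cells that received a Foxp3 retrovirus against the same kind of cells that received the empty virus. It used the 4 of 10 arrays whose titles name epigenetics(-) T cells, 2 Foxp3-transduced and 2 Foxp3(-), and all 45101 probe sets of the deposited table. All 4 arrays came from spleen of mice of the strain field DEREG_Balb/c. DEREG mice carry a transgene in which the Foxp3 promoter drives GFP fused to a toxin receptor, so that GFP marks regulatory T cells (Treg), and GFP-CD4+ cells were sorted as conventional T cells (Tconv). Both groups were stimulated with anti-CD3/CD28 antibodies and transduced with the pGCSamIN vector, whose NGFR marker was used to sort the cells that were arrayed. They are called Tconv Foxp3-labelled and Tconv mock below. The labels state neither age and sex of the mice nor any pooling of animals, and do not say that replicate arrays came from separate cultures. The p-values therefore measure only the spread between replicate arrays, pooled over all 10 arrays of the series, which may be technical. The other groups, 2 arrays each, were GFP+ cells of DEREG mice with empty vector (Treg mock) and GFP+ cells described as D_S, read as DEREG/Scurfy, with Foxp3 or empty vector (scurfy Foxp3-labelled and scurfy mock).

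Foxp3 is a forkhead transcription factor that defines the Treg lineage. It binds DNA together with partners such as NFAT and Runx1, represses cytokine genes such as Il2, and raises surface molecules such as Il2ra and Ctla4. Natural Treg also carry a stable pattern of DNA demethylation at some of these genes, which conventional cells lack, and the titles call this state epigenetics(+). The question was what Foxp3 alone sets apart in cells without that state.

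The Foxp3 transcript itself did not follow the vector label. Its only probe set read 18.04 and 18.9 on the Tconv Foxp3-labelled arrays and 53.9 and 35.9 on the Tconv mock arrays, so the labelled arrays were the lower pair. The log2 difference was -0.80 (SE 0.30, 95% interval -1.49 to -0.12, limma adjusted p = 0.31, n = 2 arrays per group). It was also the lower pair on the scurfy Foxp3-labelled arrays, with 948 and 691 against 1188 and 1114 on the scurfy mock arrays (-0.50, SE 0.30, limma adjusted p = 0.999). On the Treg mock arrays the same probe set read 2130 and 3128. The place of this probe set in the transcript is unknown here, and a probe outside the vector's Foxp3 sequence would not see it, so the label was not checked by this value. Directions below refer to arrays as labelled.

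The 4 arrays had median intensities of 18.8 to 24.3 and 75th percentiles of 124 to 167. Replicates correlated at 0.976 for the Foxp3-labelled pair and 0.965 for the mock pair, across 11318 genes, which are not independent replicates. Markers of CD4 T cells were high on all 4 arrays, with 7 of 7 above the array median and a summed intensity of 22496 and 26274 on the Foxp3-labelled and 19147 and 19926 on the mock arrays. Of 7 measured B cell markers 6 were higher on both Foxp3-labelled than on both mock arrays, as were 47.6% of all genes. Ebf1 was lower (25.2 and 15.1 against 149 and 79.5). The 7 summed to 318 and 495 on the Foxp3-labelled and 197 and 121 on the mock arrays, where Ebf1 made up most of the sum. Of those 7, 4 and 5 stood above the median of the Foxp3-labelled arrays and 1 above that of each mock array. The part of these B cell genes in the results below was not tested. NK cell markers summed to at most 74.5 and red blood cell markers to at most 36.1 on any of the 4 arrays. Mast cell and basophil markers summed to at most 75.1. Cd8a read 18.4 to 20.0 and Cd8b1 43.6 to 64.5. Myeloid markers summed to 456 and 286 on the Foxp3-labelled arrays and 988 and 374 on the mock arrays, most of it from Cebpb. Cd68 also stood above the array median on all 4 (27.9 and 39.4 against 102 and 35.3). Csf1r did so on all but Foxp3-labelled array 1, and Adgre1 on mock array 1 only. Lyz2, Cd14, S100a8, S100a9 and Itgam stayed below the array median on all 4.

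Intensities were compared as log2(intensity + 16), which understates the change of genes near the background. A difference is the Foxp3-labelled minus the mock mean, with the standard error (SE) of a limma fit over all 10 arrays, and a gene was called at a Benjamini-Hochberg adjusted p under 0.05. Of 11318 genes, 12 were called (0.106%), 6 higher (0.0530%) and 6 lower (0.0530%). At an unadjusted p under 0.05 there were 1577 (13.9%), 1267 higher (11.2%) and 310 lower (2.74%). The median of all genes was 0.26, and 72.4% of genes had a positive difference, so list medians below are read against 0.26. With quantile normalization the median of all genes was 0.01 and 7 genes were called, 2 higher and 5 lower, of which 6 were among the 12. With a common 75th percentile it was -0.02 and 15 genes were called, 4 higher and 11 lower, of which 10 were among the 12.

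**Figure D1:**
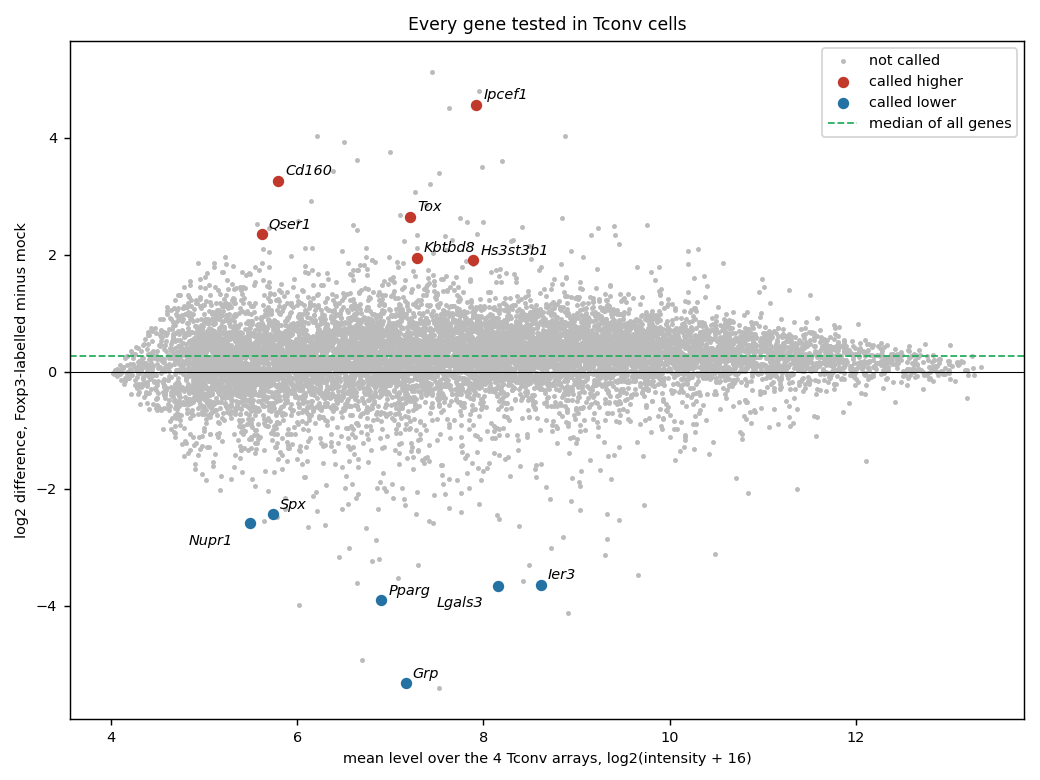
Each point is 1 of 11318 genes, placed by its mean level over the 4 Tconv arrays (x axis, log2 of intensity plus 16) and its log2 difference, Foxp3-labelled minus mock (y axis). Red and blue points are the 6 genes called higher and the 6 called lower, and the dashed green line at 0.26 is the median of all genes, which lies above 0.

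The 6 genes that rose in Tconv Foxp3-labelled arrays were Ipcef1, Cd160, Tox, Qser1, Kbtbd8 and Hs3st3b1. Ipcef1 encodes a protein that interacts with the cytohesin family of ARF exchange factors. It read 799 and 1683 on the Foxp3-labelled arrays against 43.7 and 25.7 on the mock arrays, a log2 difference of 4.56 (SE 0.42, limma adjusted p = 0.0098). The lowest Foxp3-labelled array was far above the highest mock array. Cd160, a co-inhibitory receptor of T and NK cells, read 98.5 and 243 against 2.01 and 1.76 (3.27, SE 0.40, limma adjusted p = 0.032). On the mock arrays Cd160 thus lay below the array medians of 21.5 and 18.8. Tox, an HMG-box transcription factor that acts in thymic selection and in chronically stimulated T cells, read 269.7 and 465 against 41.2 and 45.0 (2.65, SE 0.34, limma adjusted p = 0.032).

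Qser1, whose product limits DNA methylation at regulatory regions, read 81.7 and 109.5 on the Foxp3-labelled arrays and 5.56 and 5.88 on the mock arrays (2.35, SE 0.29, limma adjusted p = 0.032). Kbtbd8, a Kelch and BTB adaptor of a CUL3 ubiquitin ligase, read 286 and 294 against 61.1 and 65.7 (1.95, SE 0.25, limma adjusted p = 0.032). Both arrays of each group lay close together for it. Hs3st3b1, which adds 3-O-sulfate to heparan sulfate, read 414 and 470.4 against 98.1 and 115 (1.90, SE 0.26, limma adjusted p = 0.045).

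The 6 genes that fell were Grp, Pparg, Lgals3, Ier3, Nupr1 and Spx. Grp, which encodes gastrin-releasing peptide, read 2.59 and 11.6 on the Foxp3-labelled arrays against 551 and 1435 on the mock arrays (-5.32, SE 0.68, limma adjusted p = 0.032). Pparg encodes the lipid-sensing nuclear receptor PPAR-gamma, known in T cells from Treg of fat tissue and from Th2 cells. It read 16.6 and 13.0 against 319.9 and 623 (-3.91, SE 0.36, limma adjusted p = 0.0098). For both genes the Foxp3-labelled arrays lay below their array medians of 24.3 and 24.1. Lgals3, which encodes the sugar-binding lectin galectin-3, read 75.2 and 55.0 against 1477 and 678 (-3.66, SE 0.43, limma adjusted p = 0.032). Ier3, an immediate early gene induced by NF-kappaB and stress, read 133 and 66.6 against 1136 and 1658 (-3.65, SE 0.40, limma adjusted p = 0.029).

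Nupr1, a stress-induced chromatin-associated protein gene, read 3.18 and 1.42 on the Foxp3-labelled arrays against 74.98 and 117 on the mock arrays (-2.59, SE 0.36). Spx, which encodes the peptide spexin, read 8.77 and 5.22 against 91.4 and 128 (-2.44, SE 0.34). Both had a limma adjusted p of 0.04997, at the edge of the threshold, and both lay below the array median on the Foxp3-labelled arrays. Of all genes, 59.2% had Foxp3-labelled and mock arrays that did not overlap, 47.6% with the Foxp3-labelled pair higher and 11.6% with it lower.

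**Figure D2:**
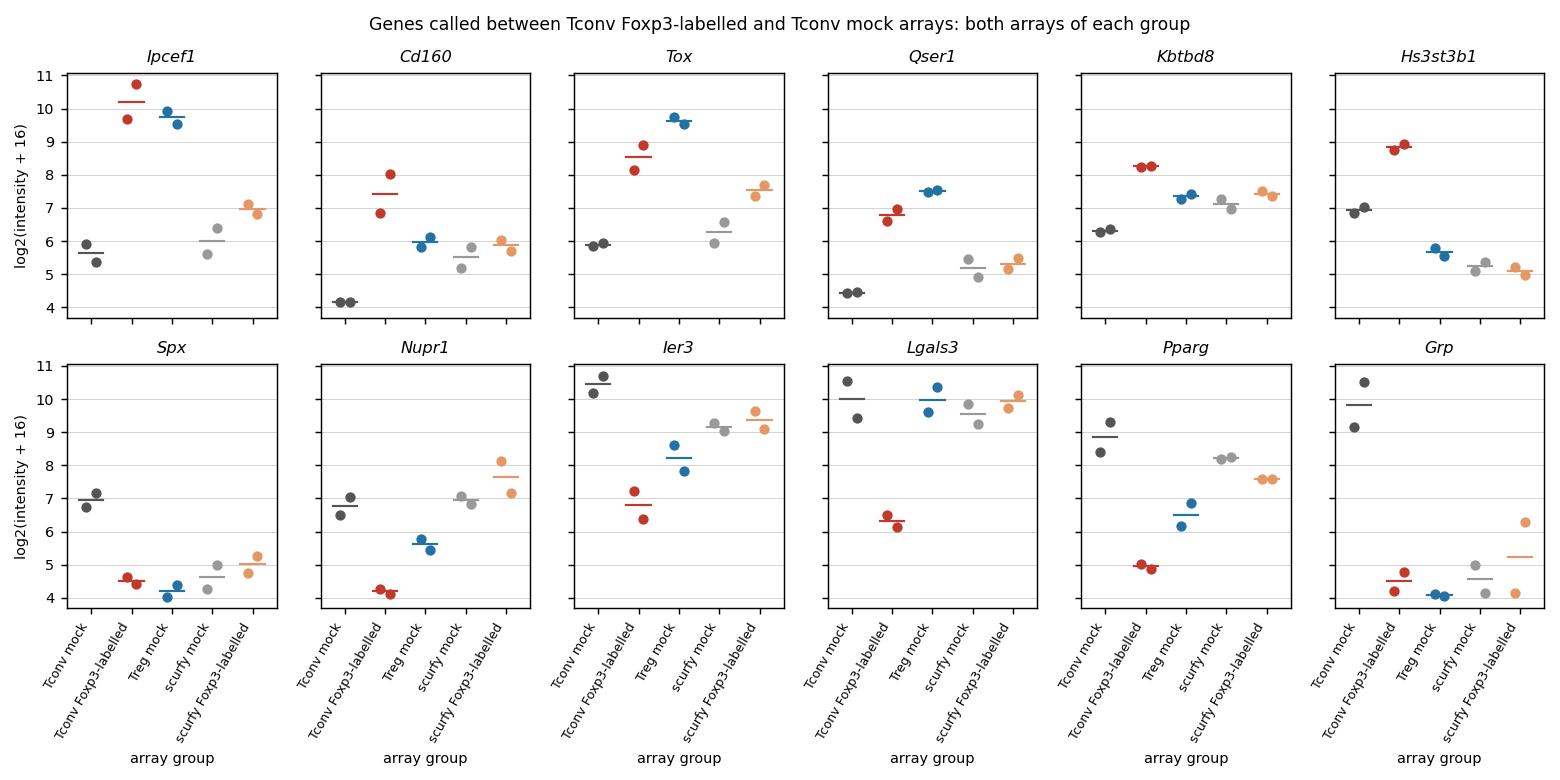
Each panel is 1 called gene, and each point is 1 array on the log2(intensity + 16) scale, with a line at the group mean of 2 arrays. In the upper row the red Tconv Foxp3-labelled points stand above the dark grey Tconv mock points, in the lower row below them, and the other 3 groups show the level of the same gene in Treg and scurfy cells.

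The called genes had 14 further probe sets, whose values are given as a description. They belonged to the 6 higher genes and Nupr1, and 13 passed the filter on low values, which a probe set can pass through the group where it is high. For Ipcef1 the 2 others differed by 3.10 and 2.33, for Tox by 2.28 and 1.49, and for Nupr1 the other differed by -2.06. Cd160 had 2 that differed by 2.87 and 2.24 and 1 by 0.48, and the further probe sets past the filter of Hs3st3b1 differed by 0.65 and 0.48. Those of Qser1 differed by 1.05 and 1.22 and that of Kbtbd8 by 0.87. Pparg, Ier3, Lgals3, Grp and Spx had a single probe set each. Tested singly with the same filter, 5 of 26069 probe sets were called (0.0192%), namely those of Ipcef1, Pparg, Ier3 and Lgals3 and 1 without a gene symbol. Without a filter limma called 0 of 45037, with a smallest adjusted p of 0.086 and 4971 at an unadjusted p under 0.05 (11.0%).

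The calls depended on single arrays. The count was 0 without Tconv Foxp3-labelled array 2 and likewise 0 if Tconv mock array 2 was left out, where 528 and 917 genes had an unadjusted limma p under 0.05. It was 1 without Tconv mock array 1, 3 without Tconv Foxp3-labelled array 1, 3 without either scurfy Foxp3-labelled array, 5 without either Treg mock array and 19 without either scurfy mock array. Leaving out either array of a scurfy or Treg pair gave the same Tconv fit, so these fits are not separate checks. Apart from Pparg, Ipcef1 and Cd160, genes kept the call only in such fits, and Nupr1 kept it in none. No called gene changed direction when 1 array was left out, which was fixed in advance. For each of them both Foxp3-labelled arrays lay on the same side of both mock arrays. Over all alternatives the difference of Pparg ran from -4.83 to -2.70 and that of Ipcef1 from 3.33 to 5.09. That of Tox ran from 1.97 to 3.03 and that of Hs3st3b1 from 0.86 to 2.04. In 13 alternatives that left out no single array, Pparg and Ipcef1 kept the call in 12, Tox in 5 and Hs3st3b1 in 3. Qser1 kept it in 5 of 12 and Spx in 3 of 12. Tox and Hs3st3b1 lost it with quantile normalization (limma adjusted p = 0.099 for both) and with the common 75th percentile (0.064 and 0.061).

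Sequence around the start of the 4 genes with the smallest p is shown because these genes moved most clearly in opposite directions. The sequences are from RefSeq (GRCm38.p6) and run from 250 bases before to 50 bases after an annotated start, 5′ to 3′ on the gene's strand. Capitals mark matches on either strand to GGAAAA, the core of NFAT sites, which reads TTTTCC on the other strand. Where a gene had several starts, the one shown was chosen after the motif search. Pparg and Ipcef1 have 3 starts each, of which 2 of Pparg and 1 of Ipcef1 hold 0 matches and are not shown.
Pparg, chr6:115421816-115422115, plus strand: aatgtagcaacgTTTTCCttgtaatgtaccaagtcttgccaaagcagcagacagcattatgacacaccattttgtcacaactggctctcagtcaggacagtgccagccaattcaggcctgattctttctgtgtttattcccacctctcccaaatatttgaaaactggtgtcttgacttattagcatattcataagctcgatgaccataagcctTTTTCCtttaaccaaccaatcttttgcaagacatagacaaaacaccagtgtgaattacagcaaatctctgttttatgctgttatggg
Ipcef1, chr10:6980416-6980715, minus strand: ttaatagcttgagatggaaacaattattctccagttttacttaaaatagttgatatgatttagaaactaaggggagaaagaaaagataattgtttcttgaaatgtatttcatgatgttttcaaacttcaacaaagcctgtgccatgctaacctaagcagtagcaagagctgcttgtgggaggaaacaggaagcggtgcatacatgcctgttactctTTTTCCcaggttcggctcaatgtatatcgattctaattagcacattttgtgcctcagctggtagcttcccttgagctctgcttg
Ier3, chr17:35821463-35821762, plus strand: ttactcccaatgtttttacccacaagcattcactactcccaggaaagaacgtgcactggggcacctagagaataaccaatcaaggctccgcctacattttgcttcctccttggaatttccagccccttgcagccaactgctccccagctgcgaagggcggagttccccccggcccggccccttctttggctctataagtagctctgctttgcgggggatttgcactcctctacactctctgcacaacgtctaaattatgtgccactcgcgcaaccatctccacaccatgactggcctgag
Lgals3, chr14:47373610-47373909, plus strand: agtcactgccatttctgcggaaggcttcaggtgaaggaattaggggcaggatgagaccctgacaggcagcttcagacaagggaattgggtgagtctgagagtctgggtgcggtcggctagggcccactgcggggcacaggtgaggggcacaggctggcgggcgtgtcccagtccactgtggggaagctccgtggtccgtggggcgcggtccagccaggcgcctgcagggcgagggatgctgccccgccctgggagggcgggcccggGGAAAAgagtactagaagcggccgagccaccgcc
Of the 12 called genes 10 had an entry, with 16 starts in all, some of them overlapping. The forkhead motif TGTTTAC was found in 0 of the 16 windows and in 3.65% of 32851 windows of that length, on both strands. The AP-1 motif TGANTCA was found in 0 of 16 against 7.81%, and GGAAAA in 6 of 16 against 23.4%. The 6 include both overlapping windows of Ipcef1, which share the same site. None of these motifs contains another, and a missing match says only that these letters are not in the window.

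Genes next in rank by p, taken from those whose groups did not overlap, were not called. On the higher side, Cd69, an early activation receptor that holds T cells in tissue, read 1274 and 1784 against 214 and 383 (2.33, SE 0.35, limma adjusted p = 0.075). Ulbp1, a ligand of the NKG2D receptor, differed by 1.74 (SE 0.28) and Frat2, a Wnt pathway regulator, by 2.35 (SE 0.39). Fbln1 (1.83, SE 0.31), Ephx1 (2.47, SE 0.42), Hmgn3 (2.26, SE 0.39), Ank (2.12, SE 0.37), Npas2 (2.34, SE 0.41) and Bex1 (2.56, SE 0.46) completed the 15 highest-ranked positive differences. On the lower side, Il10, a suppressive cytokine gene, read 198 and 45.5 against 2173 and 1835 (-4.13, SE 0.63, limma adjusted p = 0.079). Both Foxp3-labelled arrays were low for it, array 2 more so.

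Mmp7, a matrix metalloproteinase gene, read 35.5 and 9.42 on the Foxp3-labelled arrays against 559 and 187 on the mock arrays (-3.24, SE 0.51). Vim, the intermediate filament vimentin and the most abundant of these genes by intensity, read 2952 and 2248 against 7324 and 7639 (-1.53, SE 0.25, limma adjusted p = 0.11). Ifitm3, an antiviral membrane protein gene, read 214 and 238 against 1621 and 4420.5 (-3.48, SE 0.61). Ebi3, a subunit shared by heterodimeric cytokines, read 47.3 and 9.17 against 384 and 517 (-3.53, SE 0.64). Lin7a (-2.16, SE 0.32), Stra6, a retinol transporter (-2.12, SE 0.38), Il18 (-1.57, SE 0.27) and Ttc39c (-3.21, SE 0.60) completed the 15 highest-ranked negative differences. The limma adjusted p of these 18 genes lay between 0.073 and 0.14.

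None of 23 tested Treg surface and effector molecules was called, against 0.106% of all genes. At that share, 0 called says little about this list or the lists below. All 43 lists were chosen with earlier results of these data known, so a called member of a list is no further evidence. Their median was -0.35 against 0.26 over all genes, and 17 of 23 were negative (27.6% of all genes were). With quantile normalization the median was -0.58. Besides Il10 and Ebi3, Entpd1, the ectoenzyme CD39, differed by -2.28 (SE 0.58, limma adjusted p = 0.19). Ctla4, the receptor that competes for CD28 ligands, read 1676 and 804 against 3336 and 2031 (-1.15, SE 0.39, limma adjusted p = 0.28). Il2ra, the high-affinity interleukin 2 receptor chain, read 6657 and 5518 against 7507 and 7422 (-0.30, SE 0.24). Tnfrsf18, which encodes GITR, differed by -0.07 (SE 0.33), with arrays of the groups overlapping. Of the 6 Treg markers Nrp1 read 84.3 and 132 against 37.6 and 55.7 (0.97, SE 0.41), and Ikzf2, which encodes Helios, 16.9 and 24.4 against 10.2 and 9.03 (0.51, SE 0.30). Ikzf4 differed by -0.31 (SE 0.29).

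Th2 genes were the list with the lowest median, -1.64 over 12 tested members, of which 11 were negative and 0 called. With quantile normalization it was -1.84. Maf, a transcription factor for Il4 and Il10, read 1142 and 189.9 on the Foxp3-labelled arrays against 5217 and 3427 on the mock arrays (-3.12, SE 0.66, limma adjusted p = 0.17). Il24 read 364 and 104 against 850.2 and 4039 (-3.13, SE 0.94, limma adjusted p = 0.24). Il13 read 60.6 and 114 against 229.7 and 5773 (-3.58, SE 1.29, limma adjusted p = 0.30), and Il4 37.0 and 325 against 51.4 and 2037 (-1.47, SE 1.64). For Il13 and Il4 mock array 2 was high and mock array 1 lay nearer the Foxp3-labelled arrays, so the mock arrays differed from each other by more than the groups did. The Th2 median became -3.03 when Tconv mock array 1 was left out and -1.03 when mock array 2 was.

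Of 13 genes that Foxp3 is commonly held to repress, 6 were positive, 7 negative and 0 called (median -0.05). Il2, the T cell growth factor, read 254 and 1298 on the Foxp3-labelled arrays and 11.3 and 101 on the mock arrays (3.39, SE 0.86, limma adjusted p = 0.19). Ifng, the Th1 cytokine, read 179 and 519 against 35.2 and 209 (1.59, SE 0.85, limma adjusted p = 0.43), with overlapping groups. Csf2, which encodes GM-CSF, read 74.7 and 145 against 170.4 and 2335 (-2.45, SE 0.96). Il7r differed by -1.03 (SE 0.43) and Pde3b by 0.90 (SE 0.89). Effector cytokines had a median of 0.36 over 18 genes, or 0.04 with quantile normalization. Among them Lif, a cytokine of the interleukin 6 family, differed by -1.84 (SE 0.52) and Csf1 by 1.47 (SE 0.40). Th1 and cytotoxic genes had a median of -0.41 over 16 genes, with Ccl5 at -1.66 (SE 0.40). Th17 genes (median 0.10, 7 genes) and follicular helper genes (0.31, or -0.02 with quantile normalization, 9 genes) also had 0 called.

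**Figure D3:**
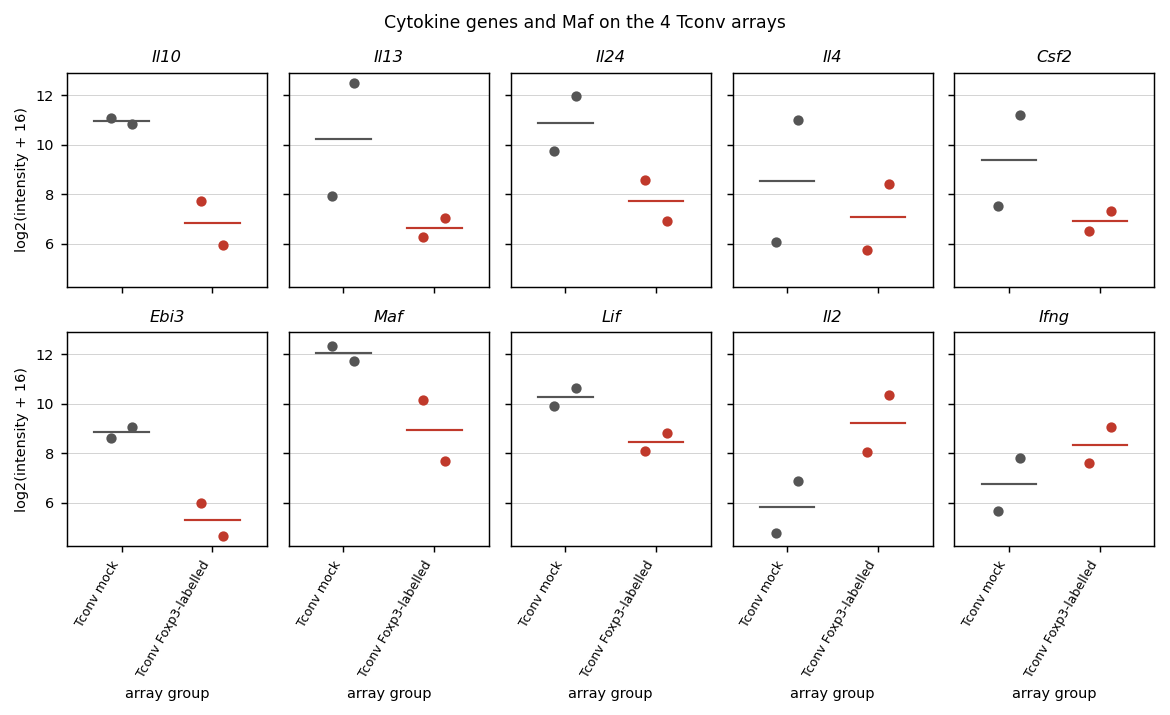
Points are single arrays of the 2 Tconv groups on the log2(intensity + 16) scale, with a line at each group mean. Il10, Ebi3, Maf and Lif have both Foxp3-labelled arrays below both mock arrays, the mock arrays stand far apart for Il13, Il4 and Csf2, and Il2 and Ifng have higher means on the Foxp3-labelled arrays.

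Among transcription factors, Pparg was the only called member of 13 nuclear receptors (0 higher, 1 lower, median 0.41, or 0.13 with quantile normalization). Its partner Rxra read 55.8 and 39.9 against 153 and 187 (-1.55, SE 0.40, limma adjusted p = 0.19). The vitamin D receptor gene Vdr read 22.6 and 3.54 against 102 and 241 (-2.66, SE 0.68, limma adjusted p = 0.19). Lipid uptake and PPAR target genes had a median of -0.10 over 20 tested genes, with 12 negative and 0 called, and -0.34 with quantile normalization. Their members included Pdk4, a brake on pyruvate oxidation (-1.86, SE 0.42), and Plin2, which coats lipid droplets (445 and 352 against 1179 and 1017, -1.43, SE 0.37). Of 3 TOX family genes 1 was called, and Tox4 and Tox2 differed by 0.64 (SE 0.25) and -0.45 (SE 0.38). Treg-related transcription factors had a median of 0.49 over 17 genes, or 0.17 with quantile normalization. Among them Bach2, a repressor of effector genes, differed by 2.19 (SE 0.59, limma adjusted p = 0.20). Helper lineage transcription factors had a median of 0.16 over 17 genes, and -0.13 with quantile normalization, with 0 called.

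Receptor genes held 1 call. Cd160 was the called member of 13 co-inhibitory receptors (1 higher, 0 lower, median -0.12), whose other members included Havcr2, which encodes TIM-3 (-1.22, SE 0.54), and Btla (1.64, SE 1.04). Of 26 cytokine receptors 18 were negative (median -0.25), with the decoy receptor Il1r2 at -2.35 (SE 0.45, limma adjusted p = 0.16) and Il6st, the shared receptor chain gp130, at 1.73 (SE 0.49). The TNF receptor family and ICOS had a median of 0.25 over 14 genes, or 0.04 with quantile normalization. Among them Tnfrsf8, which encodes CD30, differed by -2.55 (SE 0.65). Chemokine receptors and homing genes had a median of 0.02 over 19 genes, or -0.27 with quantile normalization. Ccr7, the lymph node homing receptor, read 2078 and 2719 against 890.1 and 349 (2.06, SE 0.81, limma adjusted p = 0.33). Ccr8 differed by -1.23 (SE 0.45). Naive and memory T cell genes had a median of 0.82, with 11 of 14 positive and 0 called, and 0.51 with quantile normalization. Foxp1, which keeps T cells quiescent, was among them at 1.84 (SE 0.45, limma adjusted p = 0.18).

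Among signalling genes, Ier3 was the only called gene of 28 NR4A, EGR and early response genes (0 higher, 1 lower). Their median was 0.36, or 0.11 with quantile normalization, and 16 were positive. Nr4a3, a nuclear receptor induced by TCR signals, read 707 and 1395 against 281 and 179 (2.07, SE 0.89, limma adjusted p = 0.35). MAP kinase phosphatases, which switch off ERK, JNK and p38, had a median of -0.13 over 9 genes, with Dusp4 at -1.36 (SE 0.38). T cell receptor signalling genes had a median of 0.45, with 23 of 25 positive and 0 called, and 0.19 with quantile normalization, where 17 were positive. Cblb, a ubiquitin ligase that dampens TCR signals, read 1100.5 and 2287 against 377 and 605 (1.70, SE 0.39, limma adjusted p = 0.17). SOCS family and STAT5 targets had a median of 0.03 over 13 genes, or -0.24 with quantile normalization, with Socs3 at -1.50 (SE 0.41). BCL2 family and death receptor genes had a median of 0.17 over 18 genes, or -0.04 with quantile normalization, with Bcl2l11, which encodes the death activator BIM, at 1.85 (SE 0.50).

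Metabolic lists had 0 called. For amino acid stress and serine synthesis, 13 of 17 genes were negative (median -0.34, or -0.63 with quantile normalization). Asns, asparagine synthetase, read 684 and 353 against 1117 and 1677 (-1.45, SE 0.39, limma adjusted p = 0.20), and Phgdh, the first enzyme of serine synthesis, differed by -0.95 (SE 0.29). Cholesterol synthesis genes had a median of -0.004 over 16 genes, glycolysis genes 0.12 over 17 and heat shock and unfolded protein response genes 0.23 over 18. With quantile normalization these were -0.27, -0.02 and 0.05. Cell cycle genes had a median of 0.44, with 27 of 30 positive, and 0.25 with quantile normalization. Cdk2 read 318 and 409 against 191 and 186 (0.88, SE 0.24, limma adjusted p = 0.21). Interferon-induced genes had a median of -0.24 over 20 genes and ran from -2.08 to 1.88.

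Galectins had the second lowest median of the lists with 5 or more tested genes, -0.68 over 6, with Lgals3 called. Lgals1, the abundant T cell galectin, read 8251 and 7823 against 11113 and 10899.7 (-0.45, SE 0.24). Adhesion molecules and metalloproteinases had a median of -0.02 over 19 genes, with 0 called and Adam8 at -1.71 (SE 0.35). Hs3st3b1 was called among 16 heparan sulfate genes (median 0.31), Ipcef1 among 14 cytohesin and ARF regulators (0.49), Kbtbd8 among 15 Kelch and BTB adaptors (0.50), Qser1 among 15 DNA methylation enzymes (0.23) and Grp among 6 neuropeptide genes (-0.28). With quantile normalization the medians of these lists were -0.002, 0.30, 0.18, 0.04 and -0.50. These lists were drawn up with those calls known, so their single calls are no further evidence. Their other members included Asap1, an ARF-directed GTPase activator (1.86, SE 0.42), the de novo methyltransferase Dnmt3b (1.73, SE 0.45) and Penk, which encodes proenkephalin (322 and 235 against 962 and 2937, -2.54, SE 0.68).

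**Figure D4:**
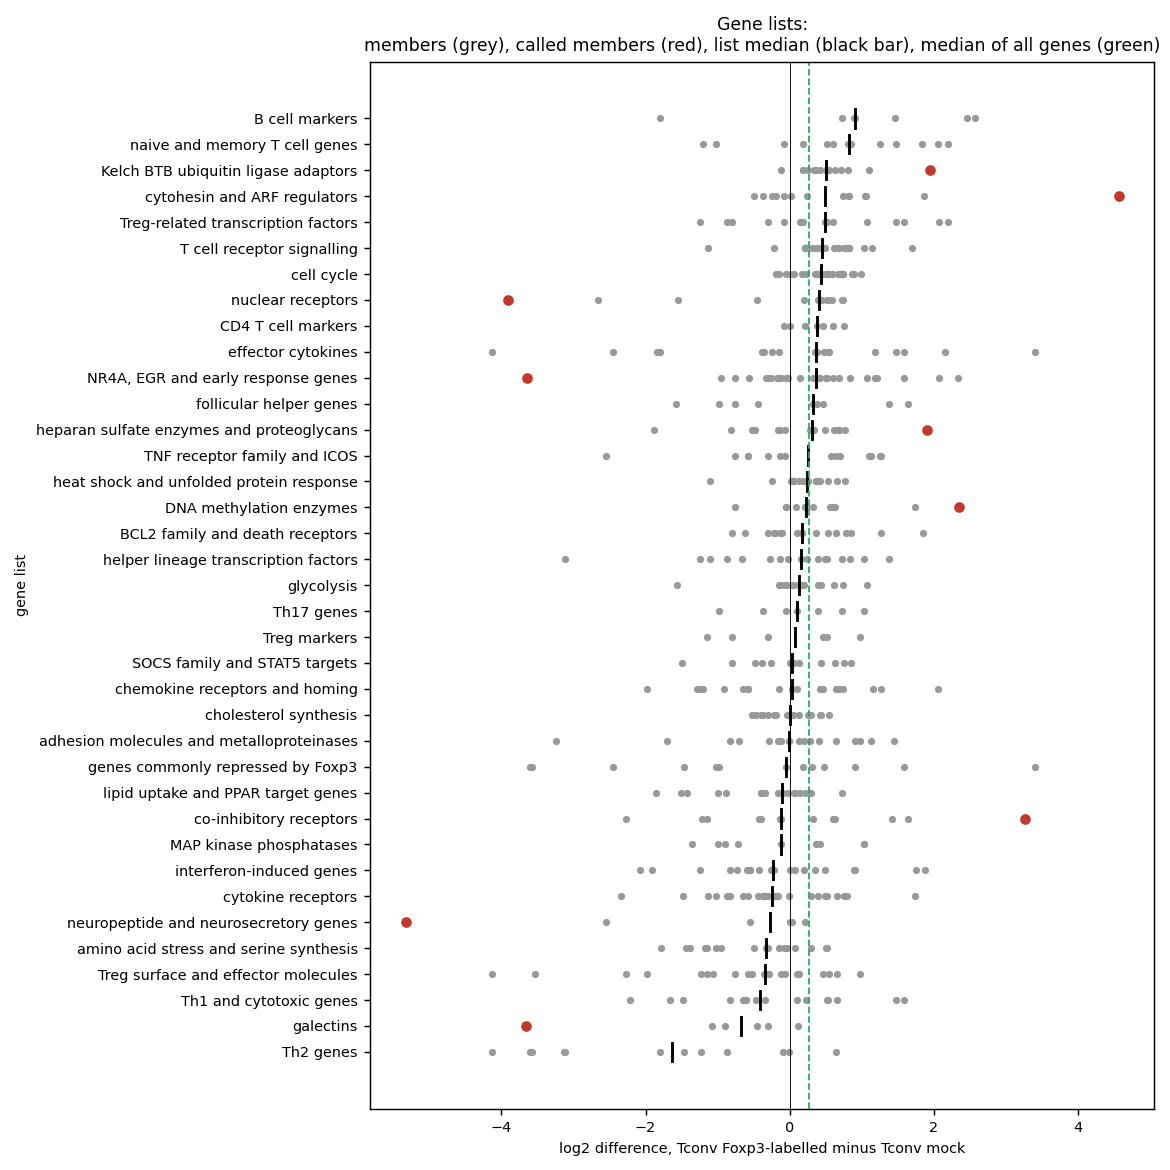
Each row is a gene list with 5 or more tested members, ordered by its median (black bar). Grey points are members, red points are called members and the dashed green line is the median of all genes at 0.26 on the x axis, the log2 difference between Foxp3-labelled and mock Tconv arrays. Th2 genes lie lowest at -1.64, and B cell markers highest at 0.90.

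The same vector contrast was available in scurfy GFP+ cells, on 4 other arrays whose replicates lay farther apart. Scurfy mock arrays correlated at 0.921 with each other, and scurfy Foxp3-labelled array 1 correlated better with scurfy mock array 2 (0.974) than with its own replicate (0.953). Replicates differed by over 1 on the log2 scale at 15.8% and 14.0% of genes in the scurfy Foxp3-labelled and mock pairs, against 4.28% and 6.11% in the Tconv pairs. There limma called 4 of 11318 genes (0.0353%), Clec4n, Cxcl16, Mmp13 and Pxdc1, none of them among the 12. Tox differed by 1.27 (SE 0.34), from 45.6 and 79.2 on the scurfy mock to 149 and 191 on the scurfy Foxp3-labelled arrays, and Ipcef1 by 0.98 (SE 0.42). Pparg differed by -0.62 (SE 0.36), with 275 and 286 on the mock and 175 and 177 on the labelled arrays. Lgals3 differed by 0.38 (SE 0.43) and Ier3 by 0.20 (SE 0.40). In the test of the difference between both effects limma called 0 genes, with a smallest adjusted p of 0.21 and 912 at an unadjusted p under 0.05 (8.06%). The difference of effects was -4.04 for Lgals3 (95% interval -5.41 to -2.67), -3.85 for Ier3 (-5.14 to -2.56) and 1.38 for Tox (0.30 to 2.46), before adjustment over all genes. These genes were picked on the Tconv difference, which is part of this value, so that choice biases the intervals away from 0. Without scurfy mock array 2, 28 genes were called in that test, and 1 without Tconv Foxp3-labelled array 1. None of the 12 genes passed the test of that difference with all 10 arrays.

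**Figure D5:**
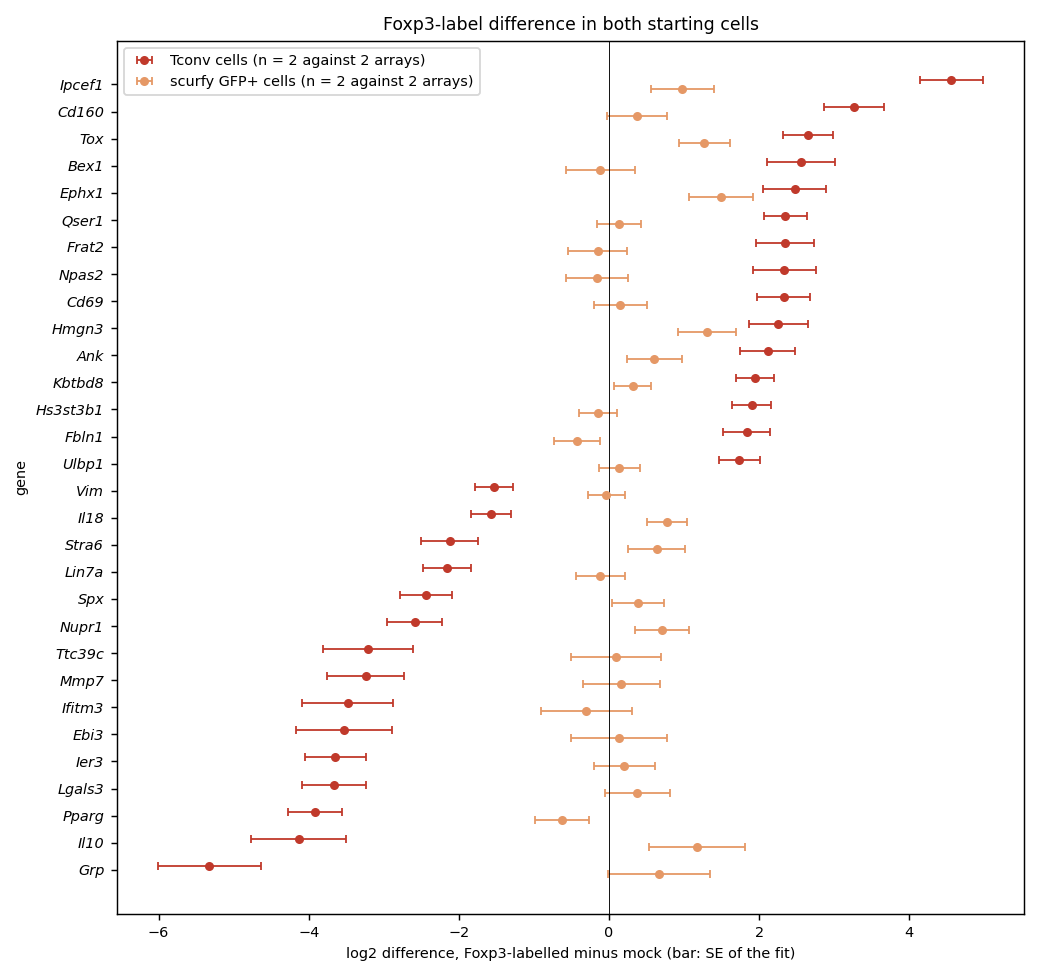
For the 30 genes called or ranked highest in Tconv cells, points give the log2 difference between Foxp3-labelled and mock arrays in Tconv (red) and in scurfy GFP+ cells (orange), with bars of 1 SE. The genes were chosen on the red values. Most orange points lie within 1 of 0, and the orange points of Ephx1, Hmgn3, Tox and Il10 lie above 1.

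The 12 genes took different places on the Treg mock arrays. Treg and Tconv Foxp3-labelled arrays were set against the same Tconv mock arrays, and in the Treg comparison limma called 123 of all genes (1.09%). Ipcef1 read 966 and 731 in Treg, close to the lower Tconv Foxp3-labelled array. Tox (838 and 722) and Qser1 (163 and 168) were higher in Treg than on both Tconv Foxp3-labelled arrays. Grp (1.35 and 0.530) and Spx (0.171 and 5.04) were below both. Pparg (55.8 and 99.7), Ier3 (376 and 211), Nupr1 (39.1 and 27.4), Cd160 (40.3 and 54.3) and Kbtbd8 (138 and 157) lay between the Tconv groups. Lgals3 (764 and 1288) lay near the Tconv mock level, and Hs3st3b1 (38.9 and 30.5) below both Tconv groups.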

How the data were processed

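RNA from 10 samples was hybridised to Affymetrix Mouse430_2 arrays as biotin-labelled cDNA. The deposited table holds 1 linear intensity for each probe set and array, made with Affymetrix Expression Console per the submitters' processing notes. The summary method, version and scaling were not given in the labels. Groups and replicate numbers came from the titles. Of 45101 probe sets, 64 were controls, 34958 had 1 gene symbol, 932 several and 9211 none, by GEO's platform annotation. For each of 18193 genes the probe set of highest mean log2(intensity + 16) was used, and the 11318 genes that exceeded the median of 2 or more arrays were tested. No normalization was added.

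limma 3.58.1 in R 4.3.3 (lmFit, eBayes) was fitted over all 10 arrays with 5 residual degrees of freedom and 4.09 from the prior. It gave 95% intervals and two-sided p-values, adjusted by Benjamini-Hochberg over all genes. The script was checked on simulated data. The signal of low probe sets and the number of arrays limit precision. The model had no block for replicate numbers.

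Alternatives changed the scaling (quantile, common 75th percentile), the pseudocount (1 or 64), the filter (none, or the 75th percentile), the summary of probe sets (mean, or each tested singly) and the model (trend and robust eBayes, array weights, Tconv arrays only, replicate block). Each array was also left out in turn. Single probe sets with the filter were added after seeing the data.

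Named genes were all called genes, the next by p among groups that did not overlap up to 15 in each direction, a fixed set that included Foxp3, Il2, Il10 and Pparg, and up to 4 members of each list with the smallest p. The comparison, the named genes, the markers and the 43 gene lists were chosen with earlier results of these data known. Of 601 list genes, 495 were tested. Genes named outside the rule were chosen after their values were seen.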

Additional observations from a re-analysis of the deposited data

Results flagged for a closer look

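A probe set without a gene symbol, 1458974_at, carried a signal outside the gene-level comparison. It read 147 and 228 on the Tconv Foxp3-labelled arrays against 16.8 and 16.3 on the Tconv mock arrays, a log2 difference of 2.62 (SE 0.30, limma adjusted p = 0.043 over 26069 probe sets). Both labelled arrays were above both mock arrays. It read 441 and 334 on the Treg mock arrays, 33.2 and 30.0 on the scurfy mock arrays and 67.8 and 51.8 on the scurfy Foxp3-labelled arrays. The call was made in an analysis added after seeing the data.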

How the results depend on the processing

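The 12 calls became 7 with quantile normalization, 3 without a filter, 5 with the mean of probe sets, 0 with each probe set (4971 at an unadjusted limma p under 0.05) and 5 with each probe set and the filter. They became 527 with array weights, which included all 12, and 7 with the replicate block. With the 4 Tconv arrays alone they became 27, of which 8 were among the 12. Lgals3, Cd160, Tox and Hs3st3b1 then had a limma adjusted p of 0.067 to 0.082. Leaving out 1 array gave 0 to 19 calls, with the counts by array in the results. Where an arm then holds 1 array, it is assumed to vary like the others. Same-numbered arrays of the 2 Tconv groups had deviations that correlated at 0.18, and the numbers were not taken to pair them. All 7 genes called with the block, 3 higher and 4 lower, were among the 12. In the test of the difference between Tconv and scurfy effects, the count of 0 became 1 with trend and robust options and ran from 0 to 28 when 1 array was left out. Leaving out single arrays turned the sign of some genes with overlapping groups. These were Tnfrsf18 (-0.44 to 0.31), Pde3b (-0.093 to 1.89), Il4 (-3.93 to 1.00) and Tox2 (-1.0 to 0.11). The Foxp3 transcript, whose groups did not overlap, kept its negative difference in every alternative run, from -1.21 to -0.40. The cause of these changes was not tested. Probe sets at background, and 2 arrays per group, limit what could be called.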

Other observations

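Some of the largest differences between the Tconv groups were not called and lie outside the rule for named genes. They were chosen after their values were seen. Ms4a4b, a T cell membrane protein gene, read 434 and 2358 on the Foxp3-labelled arrays against 1.25 and 34.5 on the mock arrays (5.13, SE 1.11, limma adjusted p = 0.17). Igk, the immunoglobulin kappa locus, read 1405 and 1184 against 24.2 and 39.4 (4.79, SE 1.48, limma adjusted p = 0.24), and its probes can share signal with related immunoglobulin genes. The class II gene H2-Ea read 289 and 391 against 6.78 and 7.45 (3.93, SE 1.48). H2-Eb1 read 283 and 392.4 against 21.6 and 5.66 (3.61, SE 1.5). Mef2c, a transcription factor used by B cells among others, read 292 and 274 against 3.69 and 1.06 (4.03, SE 0.97). In scurfy cells Igk differed by 4.63 (SE 1.48), H2-Ea by 3.71 (SE 1.48) and Mef2c by 3.19 (SE 0.97) between the Foxp3-labelled and mock arrays. There scurfy mock array 1 was low and array 2 high for all 3, with Igk at 7.05 and 1091. That spread is part of the pooled SE given for these genes in Tconv cells. The B cell markers Ms4a1 (2.46, SE 0.65) and Cd79b (2.57, SE 0.95) differed in the same direction, Ebf1 in the other (-1.81, SE 0.50).

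On the lower side, Pdpn, which encodes the membrane glycoprotein podoplanin, read 22.7 and 4.46 against 889 and 1554 (-5.40, SE 1.40, limma adjusted p = 0.19). Pth, the parathyroid hormone gene, read 1.21 and 4.25 against 384 and 801 (-4.94, SE 1.18, limma adjusted p = 0.17). Hormad1, a meiosis gene, read 0.134 and 0.313 against 214 and 274 (-3.99, SE 0.86, limma adjusted p = 0.17). For these 3 genes both Foxp3-labelled arrays were below both mock arrays, as they were for 11.6% of all genes.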
